A study of Homo sapiens with 18 samples.

Results

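The effect of removing doxycycline was compared between 2 HAP1 lines: a line in which SARS2 had been deleted and replaced by a transgene, and the unmodified parental line. The comparison took all 59251 genes in 12 of the 18 libraries of the series, in 4 groups of 3. HAP1 is an adherent human line with close to a single set of chromosomes that came from KBM-7 leukaemia cells. The groups were parental cells with 15 ng/mL doxycycline, parental cells without the drug, the deleted line (∆SARS2 with a transgene for SARS2 carrying 1 FLAG tag) with 15 ng/mL doxycycline, and the deleted line 9 days without the drug. The labels give no time without the drug for the parental cells, so the length of removal cannot be told apart from the line. The sources used here do not give the promoter of the transgene, the kind of deletion or the number of clones, and nothing says that replicates came from separate cultures. P-values therefore measure only the spread between these libraries, which may be technical.

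SARS2 is the mitochondrial seryl-transfer RNA synthetase, which charges the serine transfer RNAs used for protein synthesis inside mitochondria. Cells were kept in doxycycline until it was removed, and the series describes cells as depleted of SARS2 for 9 days at the time point used here. The sources used here do not give how the drug controls the transgene. As a tetracycline doxycycline is also known to inhibit the mitochondrial ribosome, so that removing it can act on mitochondria in either line. Failing mitochondrial translation is known to switch on the integrated stress response, in which phosphorylated eIF2alpha favours translation of the transcription factor ATF4 and ATF4 raises genes for amino acid supply and stress. The interaction asked here which genes changed by different amounts in the lines. It is the log2 change in the deleted line (day 9 minus doxycycline) minus the log2 change in the parental line (no doxycycline minus doxycycline), so a positive value means that removal moved the gene further up, or less far down, in the deleted line.

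Libraries held 66850705 to 111123481 counts, with 25062 to 27129 genes detected. Replicates had a Spearman's rho of 0.9652 to 0.9727 across genes, and every pair of replicates differed by more than counting noise (chi-square per gene 6.858 to 95.04). On the first principal component, which held 58.8% of the variance, both doxycycline groups lay between -6.821 and 2.489, the parental libraries without the drug between -45.02 and -28.5, and those labelled day 9 between 37.7 and 40.19. Parental replicate 3 without doxycycline stood apart from its group, at -45.02 on the first component and -27.06 on the second. Levels below are CPM, with library sizes scaled by TMM except in the sums over cell type markers, and are compared only within a gene. All 37 genes of the mitochondrial chromosome hold 0 counts in every library, so mitochondrially encoded transcripts were not analysed here. In bulk RNA, fewer cells that express a gene and less RNA per cell cannot be told apart.

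The targeted gene went against the series' description of the day 9 cells as depleted of SARS2. SARS2 in the parental line stood at 43.5, 46.2 and 43.2 CPM with doxycycline and at 36.6, 40.4 and 42.6 without it. SARS2 in the deleted line stood at 23.5, 25.2 and 23.9 CPM with doxycycline and at 43.3, 34 and 48.1 in the libraries labelled day 9. The libraries labelled day 9 thus lay above all 3 deleted-line libraries with doxycycline and overlapped the parental ones. The change was 0.79 ± 0.10 (SE) on the log2 scale in the deleted line (adjusted p = 2.7e-06), -0.15 ± 0.10 in the parental line (adjusted p = 0.22) and 0.94 ± 0.14 for the interaction (adjusted p = 1.1e-05). SARS2 lies on chromosome 19, 38915266 to 38930763, minus strand, in GRCh38. Reads of the transgene and any RNA left from the deleted locus fall on the same gene name, so these counts do not show which copy they came from. For this reason the day 9 group is named by its label throughout.

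MRPS12 and NFKBIB, which lie beside SARS2, were also called higher in the interaction, as were 24.4% of all genes tested. MRPS12, a small-subunit protein of the mitochondrial ribosome whose gene starts next to SARS2 on the other strand (chromosome 19, 38930944 to 38933168, plus strand), had an interaction of 1.52 ± 0.20 (adjusted p = 4.2e-06). It fell by 1.15 on the log2 scale in the parental line, while its change in the deleted line was 0.37 ± 0.14 (adjusted p = 0.038). That call in the deleted line ended without replicate 1 or 2 with doxycycline (0.34 and 0.31) and without replicate 3 labelled day 9 (0.19). NFKBIB, an inhibitor of NF-kappa-B on the other side of SARS2, had an interaction of 1.60 ± 0.19, with 0.52 ± 0.13 in the deleted line and -1.08 ± 0.14 in the parental line.

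Removing doxycycline moved a large share of the transcriptome differently in the lines. Of 21615 genes tested, 5272 (24.4%) were called higher and 5904 (27.3%) lower in the interaction at an adjusted p under 0.05, which is 51.7% in either direction. With a change of at least 2-fold, 2069 genes (9.57%) were higher and 2900 (13.4%) lower. Within the deleted line 4877 genes (22.6%) rose and 5150 (23.8%) fell. Within the parental line 4540 (21%) rose and 3979 (18.4%) fell. Counts in each gene list below are to be read against these shares over all genes. The lists were chosen with earlier results of these data known, so their counts describe them and are no independent test. The split of calls moved with the scaling: 47.2% of interaction calls were in the higher direction, against 39.6% with library size alone and 56.6% with a trend on gene span and length removed. For the parental line that share was 53.3%, and 40.7% with the span trend removed.

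Genes that moved in both lines mostly moved in opposite directions. Among 5151 genes called in both lines, 4383 (85.09%, or 20.3% of those tested) went opposite ways and 768 (14.91%) the same way. These opposite genes made up 39.22% of the interaction calls, with 2134 up in the deleted line and down in the parental line and 2249 the reverse. Another 32.2% of the interaction calls were called in the deleted line alone (1617 up, 1982 down), 21.61% in the parental line alone, 5.789% in neither line and 1.181% in the same direction in both. The changes in the lines rest on separate libraries, and across the 11787 genes at 5 CPM or more their Spearman's rho was -0.5246. It was -0.3569 across all 21615 genes, which are not independent of each other.

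**Figure D1:**
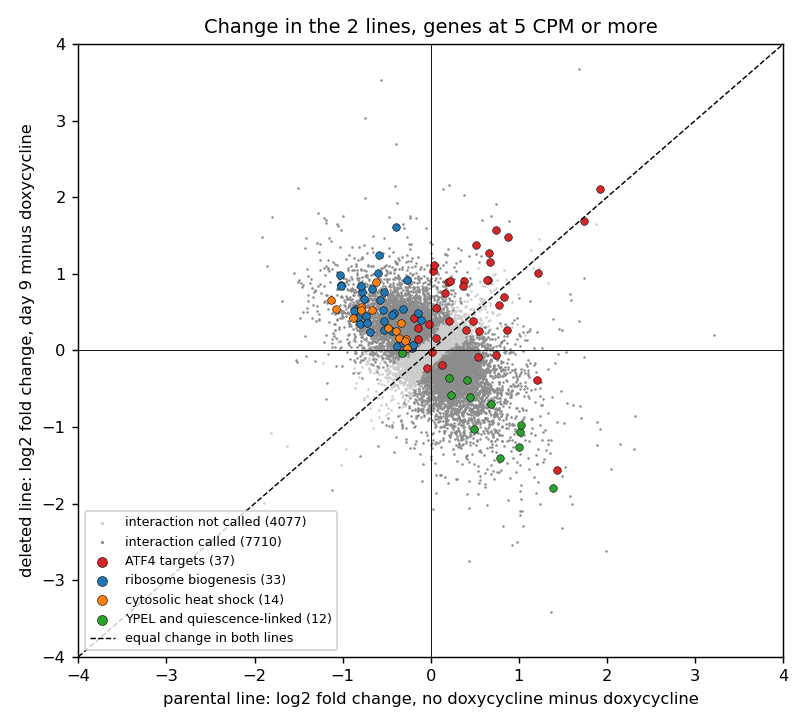
Each point is a gene at 5 CPM or more, with its log2 fold change on removing doxycycline in the parental line on the x axis and in the deleted line labelled day 9 on the y axis; 7710 genes called in the interaction are dark grey and 4077 others light grey. Most called genes fill the upper left and lower right, where ribosome biogenesis, heat shock and YPEL genes lie, while most of the 37 ATF4 targets shown lie at upper right.

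Known ATF4 targets mostly moved the same way in both lines. Over 3 lists of known ATF4 targets with 39 genes, all of them tested, 28 rose and 3 fell (SLC43A1, ALDH1L2 and KLHL24) in the deleted line, and 25 rose and none fell in the parental line. Of the 39, 20 rose in both lines and KLHL24 fell in the deleted line and rose in the parental line. In the interaction 14 were called higher, 7 lower and 18 were not called. Their median change was 0.5967 in the deleted line, 0.4745 in the parental line and 0.2692 in the interaction, beside -0.009709, 0.02795 and -0.04011 over all genes tested. Of all 21615 genes tested 22.6% rose in the deleted line and 21% in the parental line, and 516 rose in both. In the interaction 24.4% of all genes were called higher and 27.3% lower.

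Of 15 regulators 4 were called higher in the interaction (SESN2, TRIB3, ATF5 and PPP1R15A), 2 lower (CEBPG and KLHL24) and 9 were not called. The share called higher was near the 24.4% over all genes tested, of which 27.3% were called lower. CHAC1, which degrades glutathione, is a known ATF4 target on chromosome 15, 40953471 to 40956512, plus strand. CHAC1 in the parental line stood at 22.1, 18.4 and 20.7 CPM with doxycycline and at 76.04, 73.3 and 81.9 without it. CHAC1 in the deleted line stood at 10.9, 10.2 and 13.2 CPM with doxycycline and at 46.4, 60.9 and 39.8 in the libraries labelled day 9. In both lines every library without the drug lay above every library with it. CHAC1 rose by 2.10 ± 0.13 in the deleted line and by 1.92 ± 0.13 in the parental line, and the interaction was 0.18 ± 0.18 (adjusted p = 0.41). DDIT3, which encodes the stress transcription factor CHOP, rose from 24.1, 21.6 and 23.1 to 55.6, 44.1 and 60.7 CPM in the parental line and from 19.5, 18.1 and 18.8 to 36.8, 44.4 and 32.1 in the deleted line. Its interaction was -0.21 ± 0.17 (adjusted p = 0.32), again with no overlap of drug and no-drug libraries within a line. DDIT4, an inhibitor of mTORC1 signalling, changed by 1.69 ± 0.15 in the deleted line and 1.73 ± 0.15 in the parental line, with an interaction of -0.05 ± 0.21 (adjusted p = 0.87). A p above the threshold does not show that the lines changed alike: the SE of these interactions was 0.17 to 0.21.

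Other regulators were called higher in the interaction, though not all of them rose in both lines. SESN2, a sestrin that restrains mTORC1, rose by 1.28 ± 0.072 in the deleted line and 0.66 ± 0.071 in the parental line, an interaction of 0.61 ± 0.10 (adjusted p = 4.5e-05). TRIB3, a pseudokinase that dampens ATF4 and CHOP, had an interaction of 0.86 ± 0.13, and ATF5, a related transcription factor, one of 0.60 ± 0.17. PPP1R15A, the stress-induced subunit that targets a phosphatase to eIF2alpha, rose in the deleted line (0.75 ± 0.084), with 0.16 ± 0.084 in the parental line (adjusted p = 0.14). The calls for ATF5 and PPP1R15A ended when a trend on GC content, span and length was removed (0.30 and 0.31). CEBPG moved less in the deleted line, with 0.26 ± 0.06 against 0.55 ± 0.06, and its call in the deleted line ended with a span trend removed (0.17). ATF4 messenger RNA itself hardly differed, with 0.17 ± 0.06 in the deleted line and 0.17 ± 0.06 in the parental line (adjusted p = 0.029 and 0.029). Those small calls did not hold: the first ended without any 1 of the 3 deleted-line doxycycline libraries or without replicate 3 labelled day 9 (0.12 to 0.17), and the second without parental replicate 3 off the drug or replicates 2 or 3 on it (0.11 to 0.17).

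CEBPB, a bZIP transcription factor, shows how 1 library entered. In the parental line without doxycycline CEBPB stood at 53.5, 54.2 and 10.8 CPM, the last value being replicate 3, against 40.3, 35.3 and 39.6 with the drug. Its interaction was 1.07 ± 0.46 (adjusted p = 0.059) with all libraries and 0.62 (adjusted p = 0.00040) without that replicate. KLHL24, listed among the targets, fell by 1.57 in the deleted line and rose by 1.43 ± 0.19 in the parental line, an interaction of -3.00 ± 0.27.

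Genes of amino acid supply were mixed in the interaction, where 24.4% of all genes tested were called higher and 27.3% lower. Among 11 transporters 5 were called higher in the interaction (SLC7A5, SLC3A2, SLC6A9, SLC1A4 and SLC1A5), 1 lower and 5 were not called. SLC7A5 in the parental line stood at 416, 403 and 415 CPM with doxycycline and at 413, 434 and 406 without it. SLC7A5 in the deleted line stood at 252, 229.9 and 252 CPM with doxycycline and at 484, 472 and 553 in the libraries labelled day 9. All libraries labelled day 9 thus lay above all others. SLC7A5, the large neutral amino acid transporter, rose by 1.04 ± 0.063 in the deleted line, with 0.02 ± 0.062 in the parental line (adjusted p = 0.8) and an interaction of 1.02 ± 0.088 (adjusted p = 3e-08). SLC6A9, a glycine transporter, rose in both lines and further in the deleted line (1.57 ± 0.093 against 0.74 ± 0.091). SLC38A2, which carries small neutral amino acids, rose by 0.38 ± 0.058 and 0.47 ± 0.058, an interaction of -0.10 ± 0.082 that was not called (adjusted p = 0.34). SLC7A11, the cystine importer, was the 1 transporter called lower (-0.60 ± 0.21). That call ended with a span trend removed (-0.17) and without parental replicate 1 off the drug, deleted-line replicate 2 on it, or replicate 1 or 2 labelled day 9 (-0.43 to -0.56), and it was -0.92 without replicate 3 labelled day 9.

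Among 13 enzymes of amino acid and one-carbon synthesis 5 were called higher (PSAT1, SHMT2, PYCR1, GPT2 and CBS) and 4 lower (ASNS, MTHFD2, ALDH1L2 and CTH) in the interaction. These counts were not far from the 24.4% higher and 27.3% lower over all genes tested. PSAT1, the second enzyme of serine synthesis, rose by 0.90 ± 0.06 in the deleted line and 0.38 ± 0.06 in the parental line, and SHMT2, which makes glycine and one-carbon units in mitochondria, by 0.91 ± 0.10 in the deleted line with 0.22 ± 0.095 in the parental line (adjusted p = 0.075). CTH, which makes cysteine from cystathionine, rose in the parental line (0.74 ± 0.074) with -0.06 ± 0.074 in the deleted line (adjusted p = 0.51). MTHFD2, a mitochondrial folate enzyme, had the same form, with 0.54 ± 0.089 in the parental line and -0.08 ± 0.089 in the deleted line (adjusted p = 0.49). Without replicate 3 labelled day 9 MTHFD2 fell in the deleted line (-0.24).

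ASNS, asparagine synthetase, differed most in this list. ASNS in the parental line stood at 5.32, 5.68 and 4.91 CPM with doxycycline and at 12.9, 11.9 and 11.9 without it. ASNS in the deleted line stood at 5.12, 6.23 and 3.56 CPM with doxycycline and at 4.15, 4.16 and 3.13 in the libraries labelled day 9. The parental libraries without doxycycline lay above all 9 others. ASNS rose by 1.20 ± 0.19 in the parental line and changed by -0.39 ± 0.20 in the deleted line (adjusted p = 0.11, or 0.021 without replicate 3 with doxycycline), an interaction of -1.59 ± 0.27 (adjusted p = 7.5e-05). In the deposited annotation 69.5% of its exonic bases are shared with the readthrough gene CZ1P-ASNS on the same strand, so its counts are uncertain.

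CHAC1 and ASNS are shown as promoter sequence because both carry the same ATF composite element while their interactions differ. The element was searched as TGATGNAA on both strands of the 250 bases before each start in RefSeq's GRCh38.p14 promoters. It was found in 3.19% of 27305 promoters, in 1.6% of the 14347 that belong to tested genes, and in 4 of the 30 ATF4 target promoters in the table (ASNS, MTHFD1L, ATF3 and CHAC1). Capitals mark the match, which in CHAC1 reads on the reverse strand. The CHAC1 stretch is chr15:40953222-40953309 on the plus strand, with the match starting 209 bases before the start. The ASNS stretch is chr7:97872450-97872516 on the minus strand, with the match 68 bases before the start.
CHAC1: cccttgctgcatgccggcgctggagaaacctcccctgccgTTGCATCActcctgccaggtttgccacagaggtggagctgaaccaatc
ASNS: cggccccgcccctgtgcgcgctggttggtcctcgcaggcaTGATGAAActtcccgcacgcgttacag
A match of letters is a description of the sequence and not a binding site.

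Of 6 secreted stress factors 5 rose in the deleted line and all 6 in the parental line. INHBE, which encodes an activin subunit secreted by stressed cells, went from 2.36, 1.98 and 2.50 to 6.98, 6.16 and 8.84 CPM in the parental line and from 1.80, 1.24 and 1.75 to 18.3, 32.3 and 10.5 in the deleted line. It was the 1 factor of 6 called higher in the interaction (1.98 ± 0.39), though its libraries labelled day 9 spread widely, and ADM2 was the 1 called lower (-0.54 ± 0.16). STC2, a glycoprotein hormone induced by stress, rose by 0.63 ± 0.063 and 0.59 ± 0.062, and VEGFA, the angiogenic factor, by 0.87 ± 0.087 and 0.70 ± 0.087. GDF15, the stress cytokine used as a marker of mitochondrial disease, was low throughout: 0.177, 0.214 and 0.283 CPM rose to 1.07, 1.01 and 0.755 in the parental line, and 0.828, 0.676 and 0.503 to 2.65, 5.75 and 1.79 in the deleted line, an interaction of 0.25 ± 0.52 (adjusted p = 0.72). STC2, VEGFA, GDF15 and FGF21 were not called in the interaction. The upstream kinases and relay were near background, with 2 of 9 called higher (EIF2S1 and EIF2B5) and 3 lower (EIF2AK3, EIF2AK4 and PPP1R15B): EIF2S1, the alpha subunit of eIF2, was higher (0.50 ± 0.11), and EIF2AK4, the kinase GCN2, was lower (-0.45 ± 0.075), a call that ended with a span trend removed (-0.12). DELE1 (-0.08 ± 0.10) and OMA1 (-0.24 ± 0.13), the pair that relays mitochondrial stress to the eIF2alpha kinase EIF2AK1, were not called, with adjusted p = 0.54 and 0.11. OMA1 was called without replicate 3 labelled day 9 (-0.31).

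**Figure D2:**
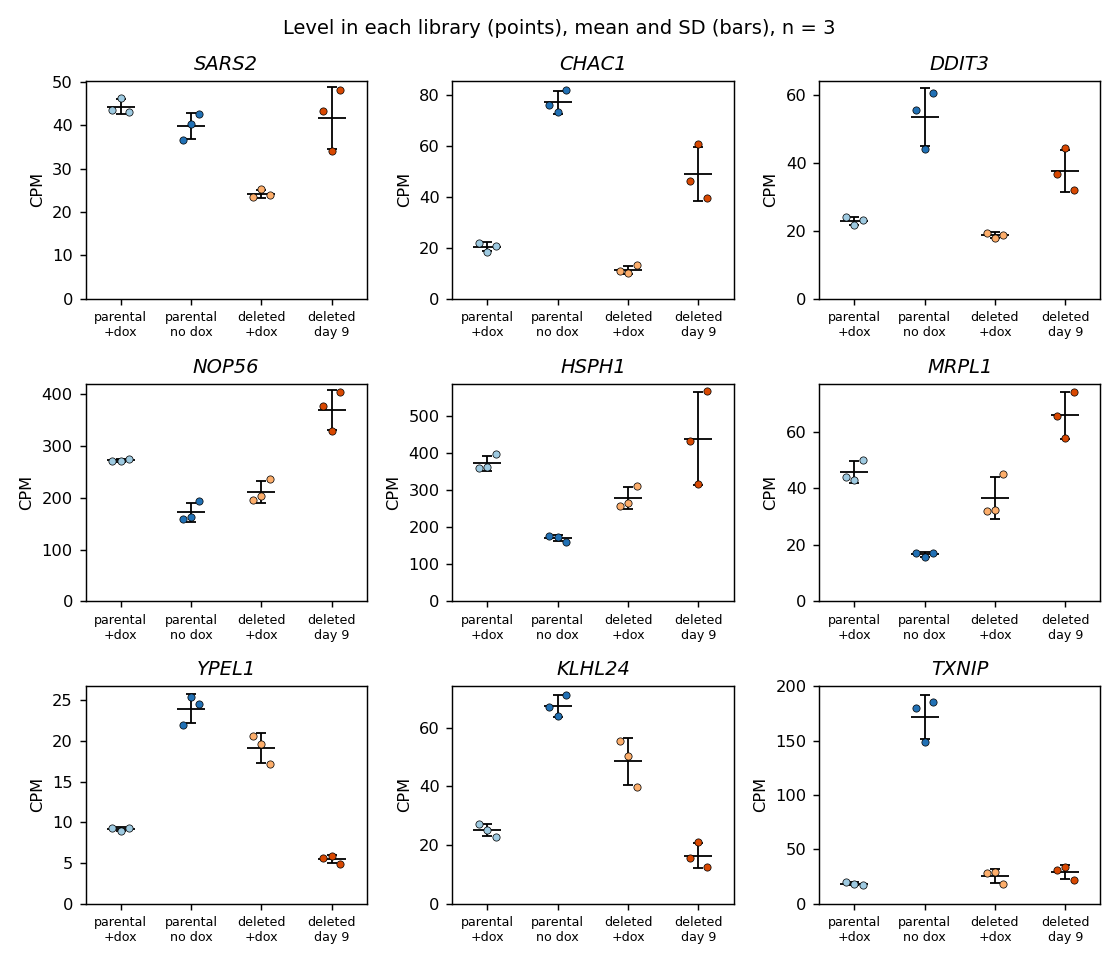
CPM of 9 genes in each library, with points for the 3 libraries of a group and bars for the mean and SD, in parental and deleted-line cells with and without doxycycline. CHAC1 and DDIT3 are higher without the drug in both lines, NOP56, HSPH1 and MRPL1 go down in the parental line and up in the deleted line, YPEL1 and KLHL24 do the reverse, and TXNIP rises in the parental line.

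Ribosome biogenesis genes moved in opposite directions in the lines. Of 33 genes for making ribosomes in the nucleolus, 32 were called higher in the interaction and none lower, with GNL3 not called (0.27 ± 0.13, adjusted p = 0.098, but 0.0015 without replicate 2 labelled day 9). In the deleted line 28 rose and none fell, in the parental line 30 fell and none rose, and 26 did both. Their median was 0.5083 in the deleted line, -0.5754 in the parental line and 1.183 in the interaction. Of all 21615 genes tested 22.6% rose in the deleted line, 18.4% fell in the parental line and 2134 did both. In the interaction 24.4% of all genes were called higher. NOP56, a core protein of the box C/D snoRNPs that guide ribosomal RNA methylation, stands on chromosome 20, 2652632 to 2658393, plus strand. NOP56 in the parental line stood at 270.4, 272 and 275 CPM with doxycycline and at 159, 163 and 193 without it. NOP56 in the deleted line stood at 196, 204 and 236 CPM with doxycycline and at 377, 328 and 404 in the libraries labelled day 9. Each line's drug and no-drug libraries were apart, in opposite order. The interaction was 1.47 ± 0.14 (adjusted p = 6.8e-08), with 0.80 ± 0.10 in the deleted line and -0.67 ± 0.10 in the parental line. NOP2, a ribosomal RNA methyltransferase, had 1.60 ± 0.15 and NOP14, of the small-subunit processome, 1.24 ± 0.12. The abundant nucleolar proteins moved less: NPM1 had 0.45 ± 0.12 and NCL 0.92 ± 0.13. FBL, the methyltransferase that works with NOP56, had 0.25 ± 0.093, a call that ended without parental replicate 1 or 2 on the drug, deleted-line replicate 2 on it or replicate 3 labelled day 9, as it did with library size alone (0.15).

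MYC, a known driver of ribosome biogenesis, moved against these genes. MYC in the parental line stood at 1066, 1077 and 1024 CPM with doxycycline and at 1306, 1425 and 1870 without it. MYC in the deleted line stood at 1190, 1197 and 995 CPM with doxycycline and at 774, 733 and 645 in the libraries labelled day 9. The parental libraries without the drug were the highest and those labelled day 9 the lowest, with no overlap with the doxycycline libraries of their line. MYC rose by 0.54 ± 0.11 in the parental line, fell by 0.65 in the deleted line and had an interaction of -1.19 ± 0.15 (adjusted p = 2.4e-06). Of 8 genes of the MYC network 5 were called lower (MYC, MYCN, MXD1, MXD3 and MXD4), 2 higher (MAX and MGA) and MNT was not called. Beside them, 27.3% of all genes tested were called lower and 24.4% higher. MAX, the partner of MYC, had 0.52 ± 0.10. MXD4, an antagonist that competes for MAX, had -0.73 ± 0.11.

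Nucleotide synthesis followed ribosome biogenesis in direction. Of 15 enzymes 10 were called higher, none lower and 5 were not called (DHODH, PPAT, GART, GMPS and PRPS1), with a median interaction of 0.4979. Without replicate 3 labelled day 9, 2 were called lower. The shares over all genes tested were 24.4% higher and 27.3% lower. CAD, which carries out the first steps of pyrimidine synthesis, went from 242, 248 and 248 to 151, 174 and 184 CPM in the parental line and from 225, 226 and 236 to 416, 358 and 412 in the deleted line, an interaction of 1.32 ± 0.10. UMPS, which completes UMP, had 1.301 ± 0.12, and CTPS1, which makes CTP, 1.10 ± 0.11. DHODH, the pyrimidine enzyme of the inner mitochondrial membrane, fell in both lines (-0.29 ± 0.086 and -0.33 ± 0.086) and was not called in the interaction (0.04 ± 0.12, adjusted p = 0.82). Its fall in the deleted line was no longer called without replicate 2 labelled day 9 (adjusted p = 0.054).

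All 14 cytosolic heat shock genes were called higher in the interaction, beside 24.4% of all genes tested. All 14 fell in the parental line, and 9 rose and none fell in the deleted line, with medians of -0.5548 and 0.3907 and an interaction median of 0.9878. Without replicate 3 labelled day 9, 6 of them rose in the deleted line and the median there was 0.2485. Of all genes tested 18.4% fell in the parental line and 22.6% rose in the deleted line. These chaperones are targets of the factor HSF1 and refold or hold unfolded proteins. HSPH1 in the parental line stood at 359, 361 and 396 CPM with doxycycline and at 177, 174 and 159.9 without it. HSPH1 in the deleted line stood at 257, 264 and 312 CPM with doxycycline and at 432, 316 and 567 in the libraries labelled day 9. HSPH1, a nucleotide exchange factor for HSP70, thus was lowest in the parental libraries without the drug, and those labelled day 9 varied from 316 to 567 but stayed above the deleted-line libraries with doxycycline. Its interaction was 1.79 ± 0.19 (adjusted p = 3.7e-07). HSP90AA1, the inducible HSP90, had 1.35 ± 0.13. HSPA8, the constitutive HSP70, had 1.62 ± 0.30 and fell in the parental line (-1.07 ± 0.22); in the deleted line its libraries labelled day 9 ran from 1336 to 3108 CPM. Its call there (adjusted p = 0.045) ended without any 1 of the parental libraries on the drug, parental replicate 1 or 2 off it, deleted-line replicate 1 or 2 on it, or replicate 1 or 3 labelled day 9, with the lowest change (0.16) in the last case. HSPB1, a small heat shock protein, had 1.303 ± 0.26, or 1.00 without parental replicate 3 off the drug, which stood at 75.1 CPM beside 165 and 182. HSPA1A, the most stress-inducible HSP70, had the smallest value named here (0.52 ± 0.19). Its call ended without parental replicate 1 off the drug or replicate 3 on it, deleted-line replicate 2 on it or replicate 3 labelled day 9 (0.33).

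CHORDC1, a co-chaperone of HSP90, went from 119.9, 116 and 127 to 79.1, 72.3 and 77.1 CPM in the parental line and from 80.6, 84.4 and 84.4 to 112, 102 and 146 in the deleted line, an interaction of 1.20 ± 0.13 with no overlap within either line. Its promoter is shown because it holds 3 overlapping matches of the heat shock element (GAA, any 2 bases, TTC, any 2 bases, GAA), searched on both strands and marked in capitals. That element was found in 0.439% of all promoters, in 0.335% of those of tested genes and in 2 of the 13 heat shock promoters in the table (HSPA8 and CHORDC1). The stretch is chr11:90223050-90223149 on the minus strand and ends just before the start.
CHORDC1: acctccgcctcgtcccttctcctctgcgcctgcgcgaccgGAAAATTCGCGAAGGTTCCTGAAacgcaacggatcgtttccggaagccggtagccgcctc

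Genes of the mitochondrial ribosome, import machinery and chaperones were mostly higher in the interaction, and for the ribosome the parental line had the larger median change. Of 79 mitochondrial ribosomal protein genes 55 were called higher, 1 (MRPS14) lower and 23 were not called, beside 24.4% higher and 27.3% lower over all genes. In the parental line 50 fell and 4 rose (MRPL10, MRPL42, MRPL48 and MRPS14; median -0.2875), and in the deleted line 31 rose and 4 fell (MRPL30, MRPS5, MRPS6 and PTCD3; median 0.1712). The 4 that fell became 7 without replicate 3 labelled day 9, 2 without parental replicate 2 or 3 on the drug, and 1 without deleted-line replicate 2 or 3 on the drug or replicate 1 or 2 labelled day 9. The 4 that rose in the parental line became 1 or 2 without parental replicate 1 or 3 off the drug or 2 or 3 on it. MRPL1 in the parental line stood at 44.1, 42.9 and 50.1 CPM with doxycycline and at 17.2, 15.7 and 17.1 without it. MRPL1 in the deleted line stood at 32.03, 32.5 and 45.1 CPM with doxycycline and at 65.5, 57.9 and 74.3 in the libraries labelled day 9. MRPL1, of the large subunit, thus was lowest in the parental libraries without the drug and highest in those labelled day 9, with an interaction of 2.304 ± 0.21 (adjusted p = 6.3e-08). MRPS2 had 1.25 ± 0.12 and MRPS11 0.94 ± 0.092. MRPL12, which also binds the mitochondrial RNA polymerase, changed mainly in the parental line (-1.13 ± 0.13), with 0.10 ± 0.13 in the deleted line (adjusted p = 0.59). MRPS14 had -0.26 ± 0.088, a call that ended without parental replicate 1 off the drug (-0.22). Its rise in the parental line was not called without any 1 parental library except replicate 2 off the drug, nor without deleted-line replicate 2 on it.

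Import and quality control took the same direction. Of 20 import genes 13 were called higher, TOMM20 alone lower (-0.43 ± 0.10), and 10 rose in the deleted line and fell in the parental line. Among all 21615 genes tested 24.4% were called higher and 27.3% lower, and 2134 moved in those opposite directions. TOMM40, the channel of the outer membrane, went from 285, 279 and 302 to 123, 143 and 90.7 CPM in the parental line and from 191, 184 and 231 to 341, 303 and 438 in the deleted line. Its interaction of 2.11 ± 0.20 (adjusted p = 8.4e-08) was the largest named in the list, beside 1.20 ± 0.11 for TOMM22 and 1.004 ± 0.10 for TIMM50. Of 17 chaperones and proteases of the matrix 9 were called higher and CLPX alone lower (-0.25 ± 0.084), a call that ended without deleted-line replicate 2 on the drug and with a span trend removed (-0.13). LONP1, the main matrix protease, rose by 0.76 ± 0.066 and fell by 0.38 in the parental line. HSPA9, the HSP70 of the matrix, had 1.03 ± 0.14, DNAJA3 0.89 ± 0.11 and the chaperonin HSPD1 0.65 ± 0.088. Among 27 tested factors of mitochondrial gene expression 16 were called higher and 5 lower (TFB1M, POLG2, GFM2, MTIF3 and PRORP). Higher ones included TWNK, the DNA helicase (1.14 ± 0.14), MTRF1L, a release factor (1.17 ± 0.14), and HSD17B10, a subunit of mitochondrial RNase P (0.98 ± 0.09).

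Transfer RNA synthetases, the enzyme family of SARS2, did not move as 1 group. Of 16 mitochondrial ones other than SARS2, 8 were called higher and 3 lower (NARS2, RARS2 and WARS2), and none of those 3 calls held with a span trend removed. The call of NARS2 ended without any 1 library except parental replicate 3 off the drug and replicate 3 labelled day 9. That of WARS2 ended without parental replicate 2 or 3 off the drug or 2 on it, deleted-line replicate 3 on it, or replicate 1 or 2 labelled day 9. AARS2 had 1.36 ± 0.13, YARS2 1.01 ± 0.11 and CARS2 0.89 ± 0.10. AARS2, the alanine enzyme, went from 52.95, 53.5 and 56.1 to 30.8, 34.2 and 34.6 CPM in the parental line and from 45.04, 42.9 and 50.4 to 72.7, 70.1 and 74.9 in the deleted line, so that each line's libraries were apart. Of 20 cytosolic ones 9 were called higher and 4 lower (AARS1, EPRS1, LARS1 and SARS1). The call of EPRS1 ended without any 1 library except parental replicate 2 off the drug and replicate 3 labelled day 9. FARSA had 1.67 ± 0.14, moving in opposite directions in the lines, while WARS1 rose in the deleted line (0.97 ± 0.072) with -0.08 ± 0.071 in the parental line. SARS1, the cytosolic seryl enzyme, had -0.33 ± 0.10, a call that ended with a span trend removed (-0.26). Of 37 respiratory chain genes for complex I 16 were called higher and 4 lower, namely NDUFA1, NDUFA10, NDUFB4 and NDUFS4 (10 and 9 with library size alone). Of 38 for complexes II to V 11 were called higher and 6 lower. The shares over all genes tested were 24.4% higher and 27.3% lower. NDUFB9 of complex I had 0.71 ± 0.093, and UQCRC2 of complex III -0.44 ± 0.074.

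DNA replication genes and mitosis genes went different ways. Of 34 replication genes 27 were called higher and none lower, 19 of them rising in the deleted line and falling in the parental line, with a median of 0.5932. Among all 21615 genes tested 24.4% were called higher and 27.3% lower, and 2134 moved in those opposite directions. RRM2, the regulatory subunit of ribonucleotide reductase, went from 329, 338 and 341 to 233, 239 and 262 CPM in the parental line and from 300.2, 307 and 341 to 511, 466 and 524 in the deleted line. Its interaction was 1.12 ± 0.089 (adjusted p = 1.3e-08), beside 1.27 ± 0.10 for FEN1, the flap endonuclease, and 0.89 ± 0.076 for POLA2, of DNA polymerase alpha. Of 25 mitosis genes 12 were called lower and 3 higher (PLK1, BIRC5 and UBE2C), with a median of -0.1998, or -0.3203 without replicate 3 labelled day 9. The calls of PLK1 and BIRC5 ended with a span trend removed (0.37 and 0.21), and PLK1 was at 0.24 without replicate 3 labelled day 9. PRC1, which bundles the spindle midzone, had -1.04 ± 0.11, CDK1 -0.86 ± 0.11 and TOP2A -0.86 ± 0.11. These 3 rose in the parental line and fell in the deleted line. Without replicate 3 labelled day 9 the number of mitosis genes that fell in the deleted line went from 10 to 17.

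Glycolysis and hypoxia targets, both known to be driven by the factor HIF1, also parted. Of 18 glycolysis genes 10 were called higher and 3 lower (PFKM, ALDOC and SLC2A3). Over all genes tested 24.4% were called higher and 27.3% lower. GAPDH had 0.95 ± 0.093, PKM 0.94 ± 0.10 and TPI1 0.87 ± 0.081, each rising in the deleted line and falling in the parental line. Of 13 tested hypoxia targets 9 were called lower, ANGPTL4 alone higher (0.99 ± 0.40) and ADM, EGLN3 and ANKRD37 were not called, with a median of -0.9075. The call of ANGPTL4 ended without any 1 library except replicate 3 labelled day 9, down to 0.48 without replicate 2 labelled day 9. In the parental line 10 of the 13 rose. PDK1 is a kinase that inhibits pyruvate dehydrogenase. In the parental line it stood at 43.1, 40.02 and 36.5 CPM with doxycycline and at 66.5, 60.6 and 64.5 without it. In the deleted line it stood at 43.6, 42.5 and 40.3 CPM with doxycycline and at 19.3, 19.2 and 21.6 without it. All 3 libraries labelled day 9 were thus below all others, with an interaction of -1.75 ± 0.10 (adjusted p = 8.4e-10). BNIP3L, a mitophagy receptor, had -1.73 ± 0.15, while its relative BNIP3 changed in the parental line (0.54 ± 0.061) with 0.01 ± 0.061 in the deleted line (adjusted p = 0.89). NDRG1, which the hypoxia list also names, was among the lowest interactions of all genes (-3.60 ± 0.33).

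Most cholesterol synthesis genes fell in the deleted line. Of 23 genes, which SREBP2 is known to drive, 14 were called lower in the interaction and 3 higher, among them PMVK and TM7SF2. In the deleted line 15 fell and TM7SF2 rose, and in the parental line 6 rose and 4 fell, among them MVK, PMVK and TM7SF2, or 12 rose when only the 12 libraries of these groups were fitted. The call of TM7SF2 in the deleted line ended without any 1 parental library on the drug, parental replicate 1 off it, deleted-line replicate 1 or 2 on it, or replicate 1 or 2 labelled day 9 (0.20 in the last case). INSIG1, which holds SREBP back and is itself its target, went from 137, 118 and 93.2 to 28.5, 25.97 and 29.04 CPM in the deleted line, while in the parental line it stood at 112, 96.4 and 103 with doxycycline and 145, 148 and 128 without it. The libraries labelled day 9 were below all others, with an interaction of -2.49 ± 0.29 (adjusted p = 8.8e-07). HMGCS1, the HMG-CoA synthase, had -2.28 ± 0.28, FDFT1, squalene synthase, -1.50 ± 0.17 and SREBF2, which encodes SREBP2, -1.17 ± 0.13. Of 13 fatty acid genes 6 were called lower and 3 higher (ELOVL1, FADS2 and MCAT). Both lists stand beside 27.3% lower and 24.4% higher over all genes tested. ACSS2, which makes acetyl-CoA from acetate, had -1.50 ± 0.15 and ACACA, acetyl-CoA carboxylase, -1.003 ± 0.13, or -0.44 with a span trend removed. That trend also took the list's median from -0.359 to 0.007352. The median was -0.1918 without replicate 2 labelled day 9 and -0.5922 without replicate 3.

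YPEL genes and other genes linked to quiescence were lower in 11 of 12 cases, with CDKN2C alone not called. In the deleted line 11 fell and none rose, and in the parental line 8 rose and CDKN2C fell, with medians of -0.8376 and 0.5875 and an interaction median of -1.455. Of all genes tested 27.3% were called lower in the interaction, 23.8% fell in the deleted line and 21% rose in the parental line. The list was chosen with earlier results of these data known, so its count is no independent test. The fall of CDKN2C was not called without parental replicate 3 off the drug or replicate 1 or 3 on it (-0.15 to -0.33). YPEL proteins are small zinc-binding proteins conserved across eukaryotes. YPEL1 in the parental line stood at 9.28, 8.89 and 9.32 CPM with doxycycline and at 21.97, 25.4 and 24.5 without it. YPEL1 in the deleted line stood at 20.6, 19.6 and 17.1 CPM with doxycycline and at 5.64, 5.92 and 4.93 in the libraries labelled day 9. The lines thus moved in opposite directions with no overlap. YPEL1 had an interaction of -3.19 ± 0.14 (adjusted p = 7.6e-11), beside -2.19 ± 0.20 for YPEL2, -2.08 ± 0.33 for YPEL3 and -1.99 ± 0.21 for YPEL5. In the annotation 42.1% of the exonic bases of YPEL1 overlap PPIL2 on the other strand, and with the strand setting of the counting not given in the sources used here its reads cannot be told from those of PPIL2. HBP1, a repressor of the cell cycle, had -2.25 ± 0.20. CCNG2, an unconventional cyclin raised in resting cells, had -1.38 ± 0.17, and CDKN1B, the inhibitor p27, -0.81 ± 0.14.

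**Figure D3:**
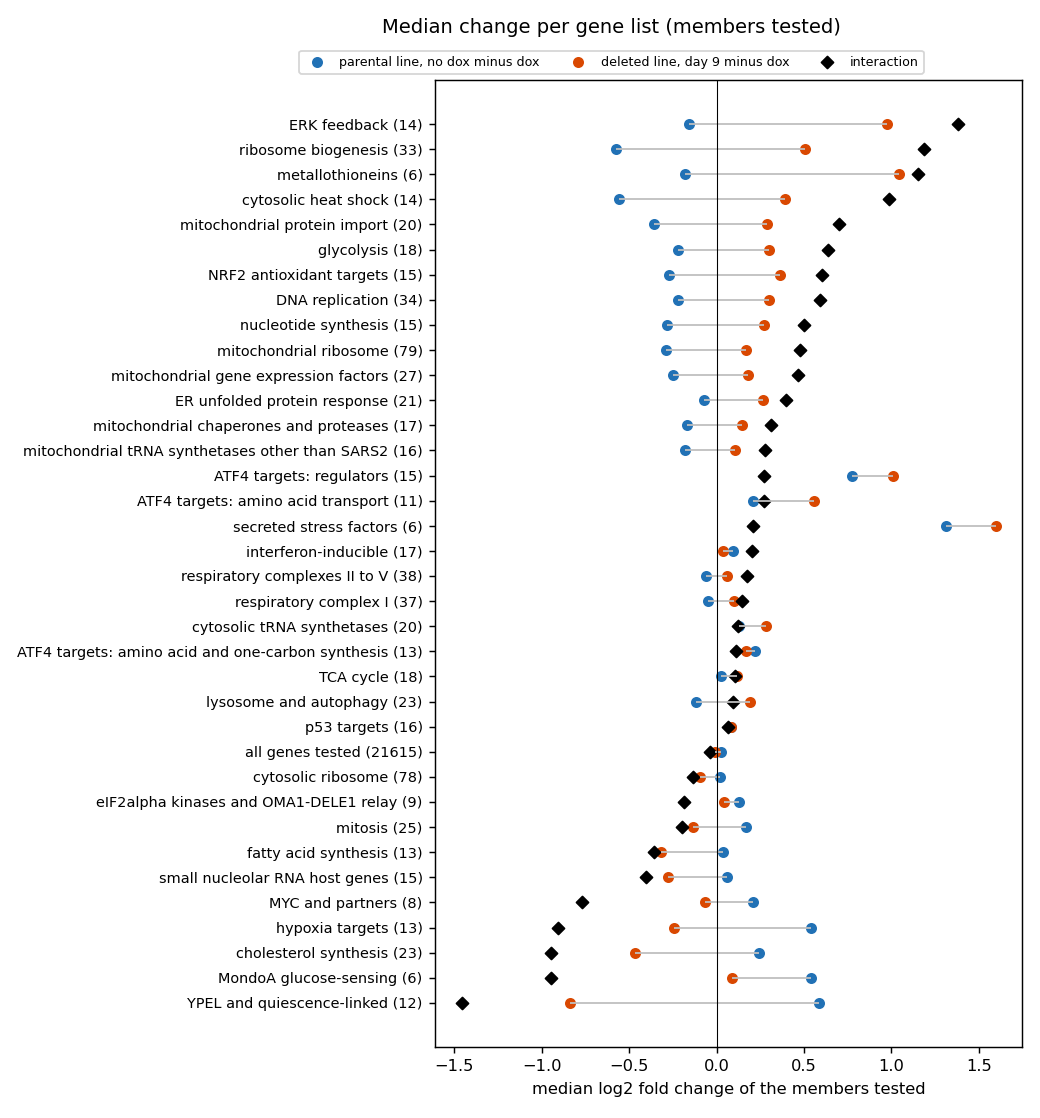
Median log2 fold change over the tested members of each gene list (number in brackets), with blue points for the parental line, red points for the deleted line labelled day 9 and black diamonds for the interaction. In most lists with a high or low interaction the red and blue points lie on opposite sides of 0, whereas those of the ATF4 lists and the secreted factors lie on the same side; the value for all 21615 genes stands near 0.

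NRF2 targets, metallothioneins and ERK feedback genes were mostly called higher in the interaction. Of 15 antioxidant genes driven by NRF2 11 were called higher and 2 lower (GCLC and SLC7A11). Across all genes tested 24.4% were called higher and 27.3% lower. NQO1, a quinone reductase, went from 46.9, 45.5 and 48.3 to 27.03, 27.6 and 29.2 CPM in the parental line and from 38, 36.2 and 47.3 to 56.4, 62.2 and 49.6 in the deleted line, an interaction of 1.22 ± 0.13. The subunits of the enzyme that starts glutathione synthesis parted: GCLM, the modifier, had 0.97 ± 0.13 and GCLC, the catalytic subunit, -0.43 ± 0.11. PGD, of the pentose phosphate pathway, had 0.60 ± 0.073.

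All 6 metallothionein-list genes that were tested, of 7 in the list, were called higher and rose in the deleted line (median 1.045). Across all genes tested 24.4% were called higher and 22.6% rose in the deleted line. Metallothioneins bind zinc and copper and are induced through the factor MTF1. MT2A in the parental line stood at 22.04, 23.2 and 24.6 CPM with doxycycline and at 19.6, 20.3 and 19.2 without it. MT2A in the deleted line stood at 39.4, 35.4 and 42.6 CPM with doxycycline and at 66.7, 65.6 and 84.8 in the libraries labelled day 9. The deleted line was thus above the parental line even with doxycycline, and rose further without it. MT2A had an interaction of 1.13 ± 0.14 (adjusted p = 1.6e-06), MT1E 1.99 ± 0.19 and SLC30A1, the zinc exporter, 0.85 ± 0.18. Family members are near-identical, so that reads may be shared between them. The promoter of MT2A (chromosome 16, 56608584 to 56609497, plus strand) is shown because it holds 7 matches of the metal response element TGCNCNC, marked in capitals and searched on both strands. The core is short and was found in 48.4% of all promoters, 55.9% of those of tested genes and all 3 promoters of this list in the table (MT1X, MT2A and SLC30A1). The stretch is chr16:56608334-56608583 on the plus strand, the 250 bases before the start, and overlaps an exon of LOC124903695 on the other strand.
MT2A: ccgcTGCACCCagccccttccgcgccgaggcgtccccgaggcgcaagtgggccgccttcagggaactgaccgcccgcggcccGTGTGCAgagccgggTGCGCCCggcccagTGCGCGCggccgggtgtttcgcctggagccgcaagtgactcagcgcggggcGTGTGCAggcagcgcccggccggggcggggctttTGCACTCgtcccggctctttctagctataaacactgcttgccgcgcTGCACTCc

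ERK feedback genes had a median interaction of 1.38, or 0.7444 without parental replicate 1 on the drug and 0.9697 when only genes with a mean of at least 1 CPM were kept. Of 14 genes, which ERK signalling raises and most of which then restrain it, 10 were called higher, IER3 alone lower and SPRED1, FOS and PHLDA1 were not called. Beside them, 24.4% of all genes tested were called higher and 27.3% lower. EGR1, an immediate early transcription factor, went from 4.41, 6.04 and 4.31 to 20.01, 19 and 26.5 CPM in the deleted line and stood at 1.36, 1.69 and 1.52 with doxycycline and 0.912, 1.43 and 1.11 without it in the parental line. Its interaction was 2.55 ± 0.32 (adjusted p = 2.5e-06). DUSP6, the phosphatase of ERK, was near absent in the parental line (0.157, 0.302 and 0.147 CPM with doxycycline) and went from 0.649, 0.725 and 0.686 to 5.82, 5.70 and 12.7 in the deleted line, an interaction of 2.98 ± 0.55. ETV4 had 1.97 ± 0.22, ETV5 2.23 ± 0.40 and FOSL1 1.76 ± 0.24. The call of IER3 (-0.55 ± 0.21) ended without parental replicate 1 or 2 off the drug or 2 or 3 on it, deleted-line replicate 2 on it, or replicate 1 or 3 labelled day 9 (-0.41 to -0.56).

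TXNIP led the genes that moved in the parental line alone. TXNIP binds thioredoxin and restrains glucose uptake, and the glucose sensor MondoA drives it together with ARRDC4. TXNIP in the parental line stood at 19.8, 17.9 and 17.5 CPM with doxycycline and at 180.1, 148 and 186 without it. TXNIP in the deleted line stood at 28.1, 29.6 and 17.9 CPM with doxycycline and at 31.3, 34.1 and 21.6 in the libraries labelled day 9. The parental libraries without doxycycline were thus at 148 CPM or above and the other 9 at or below 34.1. The change was 3.22 ± 0.17 in the parental line and 0.20 ± 0.16 in the deleted line (adjusted p = 0.32, or 0.040 without replicate 3 labelled day 9), an interaction of -3.02 ± 0.22 (adjusted p = 6.2e-09). ARRDC4 had the same form, with 1.54 ± 0.11 in the parental line and -0.03 ± 0.11 in the deleted line (adjusted p = 0.87). MLXIP, which encodes MondoA, was called higher (0.57 ± 0.10), as was its partner MLX (0.74 ± 0.10).

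Others of this kind rested in part on 1 library. PDF, which removes the formyl group from new mitochondrial proteins, stood at 10.3, 11.9 and 1.66 CPM in the parental line without the drug, TPGS1, a subunit of tubulin polyglutamylase, at 8.91, 10.3 and 0.938, and KISS1R, a peptide receptor, at 11.96, 13.8 and 3.04, replicate 3 being the last of each. Their interactions of 2.05 ± 0.51, 1.93 ± 0.59 and 1.91 ± 0.43 became 1.56, 1.41 and 1.49 without it, and each then also rose in the deleted line (0.65, 0.59 and 0.43). In the annotation 79.3% of the exonic bases of PDF are shared with COG8 on the same strand. LOC112268106 (-2.42 ± 0.41) and SLC22A18, an organic cation transporter (-1.98 ± 0.39), were lower in the interaction through the parental line. LOC112268106 also fell in the deleted line without parental replicate 3 on or off the drug, deleted-line replicate 3 on it, or replicate 1 or 2 labelled day 9 (-0.73 to -0.97). SLC22A18 also fell there without deleted-line replicate 3 on the drug (-0.78) or replicate 2 labelled day 9 (-1.05).

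The largest interactions belonged to genes of mixed function. Among the lowest was KCNAB2, a potassium channel subunit, on chromosome 1, 5992676 to 6101180, plus strand. KCNAB2 in the parental line stood at 5.90, 5.44 and 6.37 CPM with doxycycline and at 16.9, 17.8 and 18.9 without it. KCNAB2 in the deleted line stood at 10.6, 9.08 and 7.36 CPM with doxycycline and at 2.11, 3.20 and 1.40 in the libraries labelled day 9. The parental libraries without doxycycline were highest and those labelled day 9 lowest, with no overlap with any other group. The interaction was -3.61 ± 0.30 (adjusted p = 2e-08), with -2.01 ± 0.22 in the deleted line and 1.60 ± 0.21 in the parental line. ZP3, a zona pellucida protein, had -3.48 ± 0.20 and NDRG1 -3.60 ± 0.33. TJP3, a tight junction protein, had -3.47 ± 0.45. Several were noncoding: FER1L4 (-3.81 ± 0.27), OLMALINC (-3.47 ± 0.24), LOC101928156 (-3.59 ± 0.30) and LOC124906082 (-4.78 ± 0.25). OLMALINC fell in the deleted line from 71.6, 68.9 and 50.1 to 11.8, 10.8 and 10.1 CPM.

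Among the highest 10, DOK3, an adaptor protein of immune cell signalling, led at 4.10 ± 0.28 (adjusted p = 2.8e-09). DOK3 in the parental line stood at 3.59, 4.67 and 5.28 CPM with doxycycline and at 3.28, 3.42 and 2.47 without it. DOK3 in the deleted line stood at 1.81, 2.37 and 2.59 CPM with doxycycline and at 28.9, 22.6 and 26.7 in the libraries labelled day 9. All 3 libraries labelled day 9 were above all others, and the change in the deleted line was 3.53 ± 0.21. BSN, a presynaptic scaffold protein, went up in the deleted line and down in the parental line, from 3.42, 3.32 and 3.40 to 14.3, 14.6 and 15.1 and from 2.17, 2.68 and 2.70 to 0.966, 0.766 and 0.927 CPM, an interaction of 3.62 ± 0.28. PRKAR1B, a regulatory subunit of protein kinase A, did likewise (3.55 ± 0.29), as did TP53I3, an oxidoreductase and p53 target (3.40 ± 0.23), and ADAT3, a transfer RNA deaminase subunit (2.88 ± 0.43). SFXN2, a mitochondrial carrier, had 2.93 ± 0.23, LINC01963 3.07 ± 0.27 and LOC399975 3.09 ± 0.31. RPS10 (2.96 ± 0.20) shares 60% of its exonic bases with the readthrough gene RPS10-NUDT3, and LOC124903631 (3.79 ± 0.34) overlaps DNASE1 over 68.9%.

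Among the extremes, 2 had libraries of the same group that lay far apart. SMIM11, a small membrane protein, stood at 1.66, 40.4 and 22.8 CPM in the libraries labelled day 9 and at 1.54, 0.947 and 0.990 with doxycycline, so that replicate 1 lay among the doxycycline libraries and the interaction of 3.81 ± 1.08 had a large error. LOC124900647 stood at 0.0448, 1.89 and 703 CPM on the drug in the deleted line and at 0.0543, 12.9 and 0 off it in the parental line. Its fitted interaction of -15.47 ± 3.72 rests on libraries at or near 0 counts, depends on the prior count and is no bound. It became -7.53 without deleted-line replicate 3 on the drug and -8.21 without parental replicate 2 off it, where the call ended (adjusted p = 0.69).

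Among the 768 genes that moved the same way in both lines, 516 rose and 252 fell, and 636 were not called in the interaction. COL7A1, the collagen of anchoring fibrils, went from 1.38, 1.94 and 2.24 to 8.37, 7.07 and 4.84 CPM in the parental line and from 2.73, 3.05 and 2.73 to 7.81, 11.6 and 7.37 in the deleted line, an interaction of -0.22 ± 0.30 (adjusted p = 0.57). SH3BP5-AS1 rose by 1.46 ± 0.17 and 1.23 ± 0.17, though 44.4% of its exonic bases overlap SH3BP5 on the other strand. CHL1, a neural adhesion protein, fell in both, from 37.02, 39.1 and 39.7 to 20.4, 19.5 and 19.6 CPM and from 29.6, 27.6 and 29.7 to 11.3, 9.51 and 14.6, with an interaction of -0.33 ± 0.16 (adjusted p = 0.1, or 0.0028 without replicate 3 labelled day 9). The noncoding MIR99AHG also fell in both (-1.50 ± 0.19, or -0.99 with a span trend removed, and -1.02 ± 0.19), with an interaction of -0.48 ± 0.27 (adjusted p = 0.14, or 0.00029 without the same replicate). RN7SK, the small nuclear RNA that holds P-TEFb inactive, stood at 21.2, 8.75 and 42.3 CPM in the parental line with doxycycline, so that its libraries spread widely. It fell in both lines, but not without parental replicate 1 off the drug or 3 on it in the parental line, nor without replicate 1 or 2 of either deleted-line group in the deleted line. LOC110467529 also fell in both, but not without parental replicate 1 or 3 off the drug or 3 on it, nor in the deleted line without replicate 2 on the drug or 1 labelled day 9.

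The remaining lists were less uniform, read against the 24.4% higher and 27.3% lower calls over all genes. Cytosolic ribosomal proteins had 8 of 78 called higher and 17 lower, a count that was 38 with library size alone, 30 without replicate 3 labelled day 9 and 11 without parental replicate 1 off the drug. RPL13A had -0.66 ± 0.09, while RPL17 (1.84 ± 0.14) shares 47.2% of its exonic bases with RPL17-C18orf32. Of 18 genes of the tricarboxylic acid cycle 4 were called higher (CS, DLD, MDH2 and DLAT; 7 without parental replicate 3 off the drug) and 4 lower (IDH2, SUCLG2, PDHB and PDHX), SUCLG2 with -1.06 ± 0.10 (-0.50 with a span trend removed) and CS with 0.43 ± 0.10. Lysosome and autophagy genes split, 10 higher and 8 lower of 23, with SQSTM1, the autophagy receptor p62, at 1.10 ± 0.089 and WIPI1, which binds forming autophagosomes, at -2.14 ± 0.16. Targets of p53 split 7 and 7 of 16: AEN, an exonuclease, had 1.38 ± 0.13 and CCNG1, cyclin G1, -1.43 ± 0.12, while MDM2 was higher (0.77 ± 0.12) and CDKN1A lower (-0.79 ± 0.22). Of 17 tested interferon-inducible genes 5 were higher (IFIT3, OAS3, IRF1, IRF7 and DDX58) and 4 lower, among them OAS1, OAS2 and IFIH1. Unfolded protein response genes of the endoplasmic reticulum had 10 higher and 3 lower of 21 (DNAJB9, EDEM1 and ATF6), with CRELD2 at 1.56 ± 0.18 and HYOU1 at 0.81 ± 0.10. Small nucleolar RNA host genes had 8 of 15 lower and 2 higher (SNHG15 and SNHG17; 4 without replicate 2 labelled day 9), with ZFAS1 at -1.24 ± 0.17 and SNHG17 at 1.27 ± 0.19.

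Genomic span moved with the interaction across genes. Among 11787 genes at 5 CPM or more, Spearman's rho of the interaction with span was -0.368, of the deleted line's change -0.344 and of the parental line's change 0.293, and the rho of the interaction with GC content was 0.331 over 11582 genes. The median interaction went from 0.3598 in 1183 genes under 5 kb to -0.6827 in 150 genes of 500 kb or more. In the longest class 6.67% of genes were called higher and 68.7% lower. The span trend was fitted and removed as an alternative; 10947 genes were then called and the rho with span was -0.13. Which part of each list's change goes with span was not tested beyond this. The nuclear retained RNA NEAT1, which builds paraspeckles, was among the lower genes. NEAT1 in the parental line stood at 3.85, 3.70 and 4.28 CPM with doxycycline and at 14.97, 12.6 and 16.2 without it. NEAT1 in the deleted line stood at 6.65, 7.22 and 6.70 CPM with doxycycline and at 2.71, 2.001 and 3.99 in the libraries labelled day 9. Its interaction was -3.13 ± 0.26 (adjusted p = 2.3e-08). MALAT1, a noncoding RNA of nuclear speckles, had -0.68 ± 0.19, with libraries labelled day 9 at 1453, 1017 and 850.5 CPM, and 82.1% of its exonic bases overlap TALAM1 on the other strand.

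**Figure D4:**
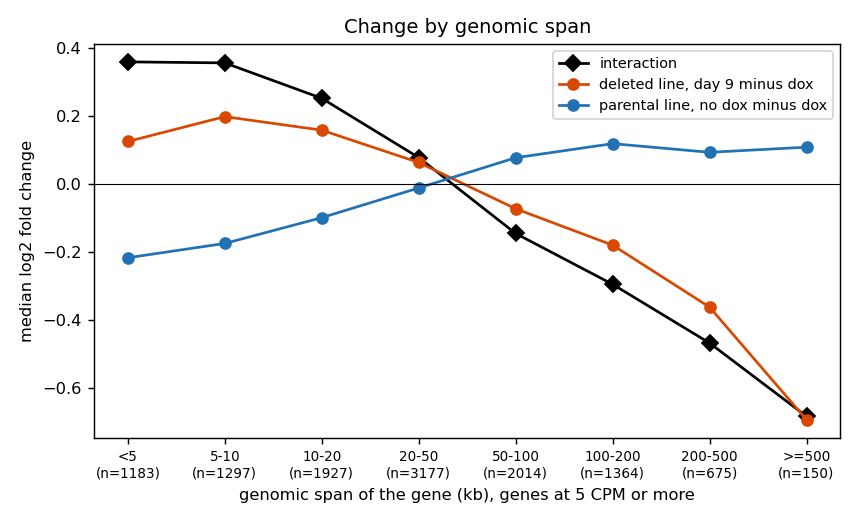
Median log2 fold change of genes at 5 CPM or more in 8 classes of genomic span, for the interaction (black), the deleted line labelled day 9 (red) and the parental line (blue), with the number of genes under each class. The interaction goes from 0.3598 in the shortest class to -0.6827 in the longest, and the lines go in opposite directions with span.

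Markers of other cell types differed between the groups. Their summed levels are CPM by library size alone, without TMM. Of 8 haematopoietic markers 3 to 7 were at 0 in each library and their summed level was 0.4616 to 0.7649 CPM in the libraries labelled day 9 and at most 0.1737 in the others, with CD33 called higher. Epithelial markers summed to 50.5 to 62.92 CPM in the libraries labelled day 9 and 27.38 to 36.67 in the others, mostly KRT18 (1.15 ± 0.15). Mesenchymal markers summed to 843.7 to 1027 CPM in the libraries labelled day 9, 695.6 to 751.4 in the deleted line with doxycycline and 487.9 to 559.9 in the parental line, mostly VIM (0.61 ± 0.11). Of the 3 lists' 10 tested members 5 were called higher (CD33, KRT18, VIM, FN1 and CDH2) and 2 lower (CLDN4 and COL1A1). Their part in the results was not tested.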

How the data were processed

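RNA was sequenced with reads of 151 bases, per the labels. The authors deposited raw featureCounts counts per gene, with exonic lengths, per the file headers. GRCh38 was the build, and HISAT2, featureCounts of Subread, SAMtools, DESeq2 and cutadapt 2.3 are listed without role or order, per the submitters' processing notes. The sources used here give neither annotation release nor strand setting, so counts of overlapping genes are uncertain. The tables were joined by gene, 16 genes on broken lines were rejoined, and 6 libraries held in 2 tables were identical in all 6 cases. Counts over all 18 libraries were filtered with filterByExpr, scaled with TMM and fitted with edgeR 4.0.16 (R 4.3.3, limma 3.58.1), with 1 mean per group. The contrasts were tested with the quasi-likelihood F test and Benjamini-Hochberg adjustment over 21615 genes, and genes were called at an adjusted p under 0.05. SE is the log2 change divided by the root of F. Fold changes are log2 and adjusted p-values come from edgeR's fit unless another setting is named. Called changes in a line are described as rose or fell.

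Libraries held 66850705 to 111123481 counts. In simulated counts for the interaction over 21075 genes, 67, 67 and 66 genes were changed by 0.5, 1 and 2 (log2) in the day 9 group. Of these 22.4%, 70.1% and 100% were called, and 5 unchanged genes were called. With so few changed genes the adjusted threshold was stricter than in the data, where 51.7% of genes were called. The simulated shares are therefore not those of the real fit. Gene lists and members were chosen with earlier results of these data known. The rule for named genes took the 10 highest and 10 lowest interactions at 5 CPM or more, up to 3 called members of each of 38 lists by smallest adjusted p, 12 genes named outright, the 4 genes of each orientation that moved most in opposite directions, 4 in each direction that moved alike without an interaction call, and the 3 highest and 3 lowest called in the parental line but not the deleted line. It gave 151 genes. Another 73 were named after their values were seen, as were members singled out in counts of 5 or fewer. Alternatives were RLE scaling, library size alone, no filter, a mean of at least 1 CPM, DESeq2 1.42.0, the 12 libraries alone, a replicate block, a trend on span and exonic length removed, and each library left out. A trend that also held GC content was added after the data were seen. GC values matched 18148 of 21615 genes. Promoter sequences are from RefSeq's GRCh38.p14 table. Some genes are not reported here. The other 6 libraries entered the filter, the scaling and the estimate of spread, and no contrast.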

Additional observations from a re-analysis of the deposited data

Results flagged for a closer look

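The difference between the lines' responses was tested for every gene, so each gene called in the interaction (11176 in all, 4383 of them called in both lines in opposite directions) differs between the groups by construction. The extremes are given here by their interaction, with levels in the lines for TP53I3 and FER1L4 alone. At the high end were DOK3 (4.10), SMIM11 (3.81), LOC124903631 (3.79), BSN (3.62), PRKAR1B (3.55), TP53I3 (3.40), LOC399975 (3.09), LINC01963 (3.07), RPS10 (2.96) and SFXN2 (2.93). Among those at the low end were LOC124900647 (-15.47), LOC124906082 (-4.78), FER1L4 (-3.81), KCNAB2 (-3.61), NDRG1 (-3.60), LOC101928156 (-3.59), ZP3 (-3.48), TJP3 (-3.47) and OLMALINC (-3.47). SMIM11 was at 2.99 without replicate 2 labelled day 9, and LOC124900647 at -7.53 without deleted-line replicate 3 on the drug and at -8.21 without parental replicate 2 off it, where its call ended. TP53I3 went from 9.74, 8.99 and 13.4 to 33.8, 31.4 and 24.5 CPM in the deleted line and from 9.44, 11.4 and 11.2 to 3.05, 3.14 and 2.32 in the parental line. FER1L4 went from 10.8, 11.6 and 7.74 to 2.51, 2.12 and 1.46 and from 6.74, 6.29 and 5.52 to 16.97, 17.6 and 17.7.

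SARS2 itself had an interaction of 0.94, against the series' description of the day 9 cells as depleted of SARS2. ADAT3 (2.88) moved strongly in opposite directions in the lines. Called in the parental line but not in the deleted line were PDF (2.05), TPGS1 (1.93), KISS1R (1.91), TXNIP (-3.02), LOC112268106 (-2.42) and SLC22A18 (-1.98). Without parental replicate 3 off the drug PDF, TPGS1 and KISS1R were at 1.56, 1.41 and 1.49.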

How the results depend on the processing

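The number of genes called in the interaction (11176) was 9383 to 11484 over the alternatives, 10342 to 11360 of them with 1 library left out, and the counts within each line and of opposite and same-way genes stayed within 1.5 times their main values. Of 199 named genes called, 179 kept the call under all 21 alternatives. Values reversed sign in 2 genes: EPRS1 went from -0.24 to 0.025 with the span trend removed and to 0.046 with GC content in the trend, and NARS2 from -0.34 to 0.048 and 0.050. Leaving out 1 library gave 8522 to 10747 calls in the deleted line, 6916 to 9497 in the parental line, 3618 to 4611 opposite genes and 575 to 1128 that moved the same way. Opposite genes were 79.90% to 87.39% of those called in both lines, lowest without replicate 3 labelled day 9. The median interaction over all genes went from -0.04011 to -0.1437 with library size alone and to 0.07699 with the span trend removed. The medians of ribosome biogenesis (1.075 to 1.261), heat shock (0.8549 to 1.103), DNA replication (0.4885 to 0.6254), the YPEL list (-1.64 to -1.302) and cholesterol synthesis (-1.054 to -0.8434) kept their sign under all alternatives. Those of the tricarboxylic acid cycle, p53 and lysosome lists changed sign with library size alone, that of p53 targets also without parental replicate 3 off the drug (-0.07259), and that of interferon genes without the filter (-0.1998) and without replicate 2 labelled day 9 (-0.026). The fatty acid median changed sign with the span trend removed (0.007352), and that of the epithelial markers (-0.06382) under several alternatives, up to 0.2478 with a mean of at least 1 CPM. Correlations of deviations between libraries of different groups were -0.182 to 0.204 for same-numbered libraries and -0.268 to 0.344 for the others. Between the doxycycline groups, same-numbered libraries were at 0.0996, 0.18 and 0.184, and the others at -0.193 to 0.0935. A fit with the replicate block gave 11049 interaction calls, 9888 in the deleted line and 8421 in the parental line. At 3 libraries a group, changes of 0.5 on the log2 scale were mostly missed in simulated counts. Few genes were changed there, so the share missed does not carry over to these data.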
